A study of Homo sapiens with 6 samples.

Results

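The difference between 200 nM and 100 nM of PCI-24781 after 24 h of treatment was examined in MDA-MB-231, a cell line from a triple-negative breast cancer. The compound PCI-24781 is an inhibitor of histone deacetylases (HDACs), and cells given only its solvent, DMSO, were the controls. RNA-seq was done after 24 h and after 48 h on cells treated with DMSO, 100 nM or 200 nM in adherent culture, with 1 library for each of these conditions. All 6 libraries therefore come from the same cell line, with no genetic change named, and the treated groups differ only in dose and in time by their labels. The dose step used 2 of the 6 libraries, 100 nM 24 h and 200 nM 24 h, and no DMSO library entered it. Genes were kept when they reached an FPKM (fragments scaled to transcript length and to the mapped fragments of the library) of at least 1 in either of the 2 libraries, which left 11651 of 16623 genes. For each gene, log2 of (FPKM + 1) at 200 nM over (FPKM + 1) at 100 nM was calculated, and a gene was called higher or lower at 200 nM at a fold of at least 2 on this scale. The added 1 makes the fold of weakly expressed genes smaller than the fold of their FPKM. Because each side is 1 library, no difference has a replicate check and no p-value is given. At the limit of the rule, EDNRA reached an FPKM of exactly 1 and was kept, while RGS14 reached 0.99 and was not.

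Histone deacetylases remove acetyl groups from histone tails, and an inhibitor lets acetylation build up around genes. In cancer cells, such inhibitors are known to switch on genes that were silent, to raise the cell cycle inhibitor CDKN1A and to lower genes of DNA synthesis. Expression of many active genes also falls, so a response to these drugs runs in both directions.

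The depth was about 17300000 reads for the 100 nM library and 17400000 reads for the 200 nM library, as inferred from the steps between low FPKM values, and 3 reads on 2 kb of transcript are then worth an FPKM of 0.0867 and 0.0862. Of the 16623 genes, 1380 were listed at 0 in the 100 nM library and 1130 in the 200 nM library, and the range over the 6 libraries was 1130 to 1708. Genes known to be high in MDA-MB-231 cells were high in both libraries, among them VIM, with 1677 and 1696, and CD44, with 219 and 218. Expression of the estrogen receptor gene ESR1 was listed at 0 in both, and that of the progesterone receptor gene PGR was 0.03 and 0.01. Of the low markers, ERBB2 was at 16.5 and 13.2 and EPCAM at 2.81 and 2.26. The summed FPKM of 9 leukocyte markers was 86.5 at 100 nM and 73.9 at 200 nM and lay between 72.8 and 128 over the 6 libraries. Nearly all of it was CD68, a lysosomal membrane protein gene, with 84.7 and 70.8. Of the other leukocyte markers, PTPRC was at 0.79 and 1.01, while ITGAM and TYROBP were at 0 in both. The 12 endothelial and fibroblast markers summed to 3.79 and 6.39, within 2.29 to 7.56 over the 6 libraries. The 3 that passed the filter were higher at 200 nM, among them PDGFRB at 1.32 and 2.66 and KDR at 1.38 and 1.9. DPT was at 0 in both. In bulk RNA, fewer cells of a kind and less RNA per cell cannot be told apart.

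At the 24 h dose step, 40 genes were called higher at 200 nM (0.343% of those tested) and 21 were called lower (0.18%). With a fold of at least 1.5, the numbers were 360 (3.09%) and 250 (2.15%). Over all tested genes, the median log2 ratio was -0.0049 and the middle 90% lay between -0.44 and 0.48. The number of called genes depends on the scale: after rescaling to TPM (a unit that sums to the same total in every library), where 1 is a smaller addition, 112 genes were higher and 36 lower, so that the share of higher calls rose from 65.6% to 75.7%.

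**Figure D1:**
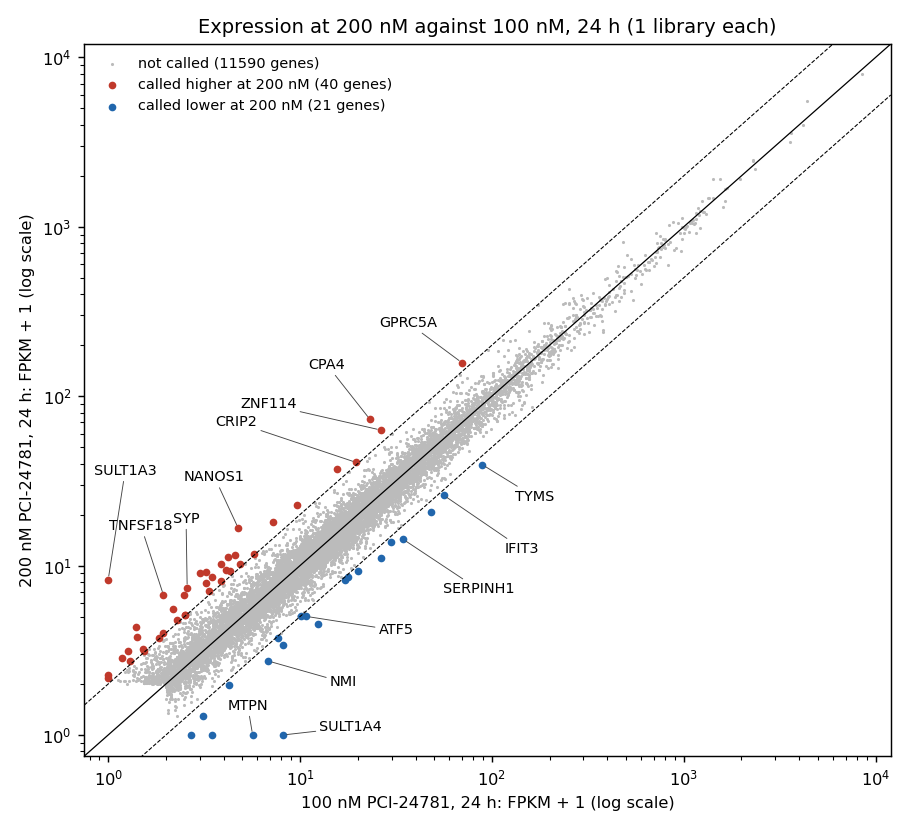
FPKM + 1 of the 11651 tested genes in the 100 nM library (horizontal, log scale) against the 200 nM library (vertical, log scale) at 24 h. Red and blue points are the 40 genes called higher and the 21 called lower, and the dashed lines mark a 2-fold difference. Most red points lie at the low end of the expression range. Blue points range from there up to IFIT3 and TYMS, the most abundant genes called lower.

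The genes called higher were mostly weakly expressed genes. Their median FPKM was 2.125 in the 100 nM library and 6.995 in the 200 nM library. In the DMSO 24 h library, which the calls did not use, their median was 0.425, and 29 of the 40 (72.5%) were under 1, against 651 of the 11651 tested genes (5.59%). At 100 nM, 13 of the 40 were under 1 too and passed the filter only through the 200 nM library, so the contrast with all tested genes is in part fixed by how the genes were chosen. The genes called lower had a median of 9.78 at 100 nM and 4.01 at 200 nM, and their median in DMSO 24 h was 14.8, above that of all tested genes (11.6). Of these 21 genes, 2 (9.52%) were under 1 in DMSO 24 h, against 5.59% of all tested genes. These were MTPN and Gene ID 2578, both listed at 0 there.

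Apart from SULT1A3, which is described with the genes that share reads, the largest ratios belonged to genes with unlike roles. NANOS1 (NCBI Gene ID 340719, hg19 chromosome 10, 120789228 to 120793244) encodes an RNA-binding translational repressor known from germ cells. Its FPKM was 3.76 at 100 nM and 15.6 at 200 nM at 24 h, a log2 ratio of 1.81, and it was 1.06 in DMSO 24 h. CPA4 (Gene ID 51200, chromosome 7, 129932974 to 129964020) encodes a secreted carboxypeptidase that was identified as a gene induced by an HDAC inhibitor. It stood at 22.1 and 72.0 in the 100 nM and 200 nM libraries, a log2 ratio of 1.66, and at 3.96 in DMSO 24 h. These values correspond to about 1078 and 3530 reads, so that counting error is small for CPA4. TNFSF18 (Gene ID 8995, chromosome 1, 173010360 to 173020103), the ligand of the T cell receptor GITR, was at 0.94 and 5.70, a log2 ratio of 1.79, and at 0.08 in DMSO 24 h.

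The 250 bases before the RefSeq start of NANOS1 and of CPA4 are given here because these genes rose most at an adequate level and have unlike promoters. Both are on the plus strand of GRCh38.p14 and are written 5′ to 3′, at chr10:119029464-119029713 for NANOS1 and chr7:130292911-130293160 for CPA4. Capitals mark matches, on either strand, to the GC box GGGCGG, the CCAAT box and the TATA box TATAAA, and matches may overlap.
NANOS1: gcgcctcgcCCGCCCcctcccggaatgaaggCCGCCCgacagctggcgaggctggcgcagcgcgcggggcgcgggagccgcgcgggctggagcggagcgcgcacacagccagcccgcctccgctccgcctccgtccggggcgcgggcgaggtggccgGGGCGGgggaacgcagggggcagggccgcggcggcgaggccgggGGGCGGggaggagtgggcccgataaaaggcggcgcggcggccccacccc
CPA4: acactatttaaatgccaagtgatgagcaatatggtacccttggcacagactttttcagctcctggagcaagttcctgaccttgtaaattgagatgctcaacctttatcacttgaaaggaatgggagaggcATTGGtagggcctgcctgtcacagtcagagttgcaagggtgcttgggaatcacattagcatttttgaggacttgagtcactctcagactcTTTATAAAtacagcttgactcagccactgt
The NANOS1 window has 83.2% G and C, 41 CpG dinucleotides and 4 matches to GGGCGG. The CPA4 window has 44.4% G and C and 0 CpG, with 1 match to CCAAT and 2 overlapping matches to TATAAA. Over the windows of 9612 tested genes with a RefSeq promoter, the median G and C content was 65.2%, and GGGCGG was found in 68.9%, CCAAT in 35.5% and TATAAA in 4.89%. A match is only a match of letters. Such windows were found for 30 of the 40 genes called higher, which is too few to compare that set with the others.

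Several of the genes called higher are best known from neurons and secretory cells. SYP, which encodes the synaptic vesicle protein synaptophysin, was at 1.58 and 6.4 at 100 nM and 200 nM, a log2 ratio of 1.52. SCG2, a granin stored in secretory granules, was at 2.85 and 9.28, a log2 ratio of 1.42. TPPP, a tubulin polymerization-promoting protein of brain, was at 1.47 and 5.69 (1.44). These genes were low in DMSO 24 h, between 0.19 for SCG2 and 0.65 for SYP. MAPK8IP1, a scaffold of the JNK kinase pathway, was at 6.19 and 17.2 (1.34), SERPINI1, the neuronal protease inhibitor neuroserpin, was at 3.30 and 8.32 (1.12), and CACNA1G, a T-type calcium channel gene, was at 0.53 and 2.13 (1.03). In the list of neuronal and neuroendocrine genes, SYP and SCG2 were the 2 called of 14 tested, 9 of the 14 were higher by any amount, and the median log2 ratio was 0.21, while 0.343% of all tested genes were called higher and 49.1% were higher by any amount. TPPP, MAPK8IP1, SERPINI1 and CACNA1G are not in that list and were grouped with it after their values were seen. Among the members that were not called, MAPT, the microtubule-associated protein tau, was at 4.56 and 8.71 (0.80), TUBB3, a neuronal tubulin, was at 59.2 and 92.7 (0.64), and NLGN1, a synaptic adhesion molecule, was at 1.54 and 0.76 (-0.53).

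Other genes called higher act at the cell surface and in cell junctions. PCDH1, a protocadherin of epithelial cells, was at 3.21 and 10.2, a log2 ratio of 1.41, and at 0.08 in DMSO 24 h. MMP15, a membrane-anchored matrix metalloproteinase, was at 2.48 and 7.52 (1.29) and at 0.50 in DMSO 24 h. TJP3, the tight junction protein ZO-3, was at 0.52 and 2.22 (1.08). FGFR4, a fibroblast growth factor receptor, was at 2.35 and 6.08 (1.08), and EFNA3, a ligand of Eph receptors, was at 3.88 and 9.23 (1.07). AQP3, a channel for water and glycerol, was at 3.58 and 10.5 (1.33). GPRC5A, an orphan receptor induced by retinoic acid, was the gene called higher with the highest expression, at 68.8 and 157 (1.18), and at 54.0 in DMSO 24 h.

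In the list of epithelial genes, TJP3 was the 1 called of 30 tested, 21 were higher and 9 were lower by any amount, and the median was 0.21, against the same 0.343% called and 49.1% higher of all tested genes. With an FPKM of 0.52 at 100 nM, TJP3 passed the filter only through the 200 nM library, so its place in the list depends on its higher value. Past 1.5-fold were also JUP, which encodes plakoglobin of desmosomes and adherens junctions, at 9.27 and 17.8 (0.87), KRT86, a hair keratin gene, at 4.07 and 7.04 (0.67), and CGN, which encodes cingulin of tight junctions, at 2.88 and 5.04 (0.64). CDH1, which encodes E-cadherin, was below the filter at 0.39 and 0.37, and the desmosomal cadherin genes DSC2 and DSG2 had log2 ratios of -0.52 and -0.48. Of the mesenchymal regulators, SNAI1 was at 0.60 and 1.57 (0.68), SNAI2 at 4.07 and 4.48 (0.11) and ZEB1 at 61.7 and 50.0 (-0.30). The intermediate filament gene VIM had a log2 ratio of 0.02 and the fibronectin gene FN1 one of 0.06. In the list of mesenchymal genes and regulators, 10 of 14 tested were higher and 4 lower, with a median of 0.15. None of these was called, and 2 were higher by at least 1.5-fold, among them SNAI1, which passed the filter only through the 200 nM library. CDH1, DSC2, DSG2, VIM and FN1 differed by less than 1.5-fold between the doses, while SNAI1 and the 4 junction and keratin genes above passed it.

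Immune and signalling genes were also among those called higher. IL24, a cytokine of the IL-10 family, was at 4.74 and 10.6 (1.02) and at 0.43 in DMSO 24 h. VSIR, the immune checkpoint protein VISTA, was at 8.66 and 21.8 (1.24) and at 2.87 in DMSO 24 h. DACT3, an inhibitor of Wnt signalling, was at 0.40 and 3.34 (1.63), which corresponds to about 20 and 165 reads. SCIN, which encodes the calcium-dependent actin-severing protein scinderin, was at 1.29 and 3.77 (1.06). CRIP2, a LIM domain protein, was at 18.6 and 39.6 (1.05) and at 2.37 in DMSO 24 h. The transcription factor genes DLX4 and ZNF114 were at 2.24 and 6.90 (1.29) and at 25.3 and 62.1 (1.26).

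Enzymes called higher included CYP2S1, a cytochrome P450, at 3.11 and 8.40 (1.19), and CDS1, a CDP-diacylglycerol synthase of phospholipid metabolism, at 0.92 and 2.99 (1.06). PADI2, a peptidylarginine deiminase, was at 0.30 and 1.73 (1.07), and PHOSPHO1, a phosphatase of bone mineralization, was at 0.42 and 2.80 (1.42). DHRS2, a short-chain dehydrogenase, was at 0.27 and 2.11 (1.29), with about 8 and 63 reads. Other genes called higher with a large ratio were PMEL, a melanosome protein, at 2.25 and 8.20 (1.5), ROPN1L, a sperm flagellum protein, at 2.01 and 7.99 (1.58), and REEP6, an endoplasmic reticulum shaping protein, at 14.6 and 36.2 (1.25). Apart from the genes that share reads, other genes called higher had log2 ratios from 1.01 for NATD1 to 1.27 for PYDC5, which was at 0.18 and 1.84. Between these lay FGGY, at 1.51 and 4.14 (1.03), AMN1, at 2.89 and 7.09 (1.06), C11orf96, at 0.84 and 2.72 (1.02), and a gene without a symbol in the RefSeq table (Gene ID 100861437), which was at 0 and 1.18.

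Genes called lower had a median FPKM of 9.78 at 100 nM, above the 2.125 of the genes called higher. At 200 nM their median was 4.01, below the 6.995 of that set. Both medians were below those of all tested genes, 11.74 and 11.45. TYMS was the most abundant of the genes called lower. TYMS (Gene ID 7298, hg19 chromosome 18, 657604 to 673499) encodes thymidylate synthase, which makes the thymidine nucleotide for DNA synthesis. Its FPKM was 88.2 at 100 nM and 38.4 at 200 nM, a log2 ratio of -1.18, and it was 153 in DMSO 24 h. SERPINH1 (Gene ID 871, chromosome 11, 75273101 to 75283849) encodes the collagen chaperone HSP47, and it was at 33.5 and 13.3, a log2 ratio of -1.27, and at 61.5 in DMSO 24 h. Of the 3 libraries of 24 h, DMSO was the highest and 200 nM the lowest for both genes. The 250 bases before their RefSeq starts are shown in the same way as for NANOS1 and CPA4, at chr18:657403-657652 and chr11:75562003-75562252 of GRCh38.p14, plus strand.
TYMS: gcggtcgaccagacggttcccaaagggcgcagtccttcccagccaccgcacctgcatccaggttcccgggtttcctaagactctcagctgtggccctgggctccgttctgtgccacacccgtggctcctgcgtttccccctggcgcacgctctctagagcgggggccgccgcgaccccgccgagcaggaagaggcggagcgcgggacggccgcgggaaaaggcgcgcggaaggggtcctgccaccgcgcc
SERPINH1: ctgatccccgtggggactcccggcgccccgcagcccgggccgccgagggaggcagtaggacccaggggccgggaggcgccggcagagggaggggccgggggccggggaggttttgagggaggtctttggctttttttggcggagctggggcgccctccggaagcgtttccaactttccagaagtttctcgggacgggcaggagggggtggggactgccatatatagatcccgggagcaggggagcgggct
Neither window has a match to the 3 marked motifs. The TYMS window has 71.2% G and C with 28 CpG, and the SERPINH1 window has 70.0% with 20 CpG.

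ATF5, a transcription factor of the integrated stress response, fell from 9.78 to 4.01 (-1.11) and was at 28.8 in DMSO 24 h. NMI, an interferon-inducible partner of STAT proteins, fell from 5.84 to 1.73 (-1.33) and was at 15.6 in DMSO 24 h. PSMB10, a catalytic subunit of the immunoproteasome, fell from 3.24 to 0.98 (-1.10) and was at 8.72 in DMSO 24 h. GTF3C6, a subunit of a general factor of RNA polymerase III, fell from 16.8 to 7.53 (-1.06), and CAP2, an actin regulator, fell from 19.2 to 8.31 (-1.11). CBR3, a carbonyl reductase, fell from 9.12 to 4.02 (-1.01), and TGFB1I1, a focal adhesion protein induced by TGF-beta, fell from 28.7 to 12.8 (-1.10). These 7 genes were highest in DMSO 24 h, lower at 100 nM and lowest at 200 nM. Between DMSO 24 h and 100 nM, TGFB1I1 differed by less than 1.5-fold, at 40.7 and 28.7.

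Other genes called lower differed by less than 1.5-fold between DMSO 24 h and 100 nM. LPXN, a focal adhesion adaptor, had an FPKM of 45.0 in the DMSO 24 h library, 47.1 in the 100 nM library and 19.7 in the 200 nM library, a log2 ratio of -1.22 for the dose step. ROBO4, a receptor of the Roundabout family known from endothelium, was at 25.04, 25.4 and 10.1 (-1.24). CMKLR2, a chemerin receptor, was at 7.14, 6.67 and 2.74 (-1.04), and ESM1, a secreted proteoglycan of endothelium, was at 1.78, 2.13 and 0.30 (-1.27), the last of these with about 11 reads. MPP4, a membrane scaffold of the retina, was at 8.33, 11.4 and 3.54 (-1.45), and GALNT3, an enzyme that starts mucin-type O-glycosylation, was at 12.3, 16.2 and 7.24 (-1.06). In all 6 of these genes, 200 nM was the lowest library of 24 h.

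**Figure D2:**
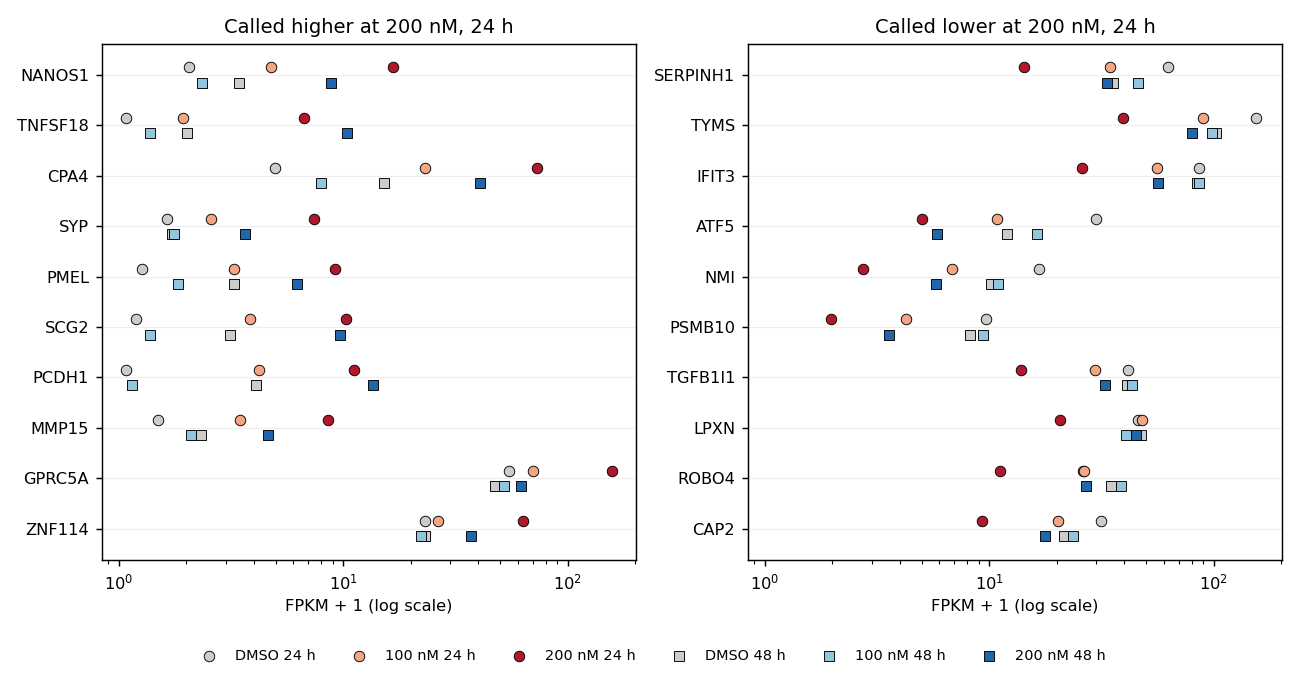
FPKM + 1 (horizontal, log scale) of 10 genes called higher (left) and 10 called lower (right) at the 24 h dose step, in each of the 6 libraries. Circles are the 24 h and squares the 48 h libraries, 1 library per mark, and at 24 h the 200 nM mark lies right of both others in the left panel and left of both others in the right panel.

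Some of the largest values came from genes that share reads with a near-identical copy or an overlapping gene, and these are uncertain. SULT1A3 and SULT1A4, sulfotransferase genes on chromosome 16 that encode the same protein, changed places: SULT1A3 was listed at 0 at 100 nM and at 7.27 at 200 nM, and SULT1A4 was at 7.17 and at 0. Their sum was 7.17 at 100 nM and 7.27 at 200 nM. SERF1A was at 2.49 and at 0 while its copy SERF1B was at 16.1 and 12.03, and EIF3CL was at 0 and 1.26 while EIF3C was at 114 and 120. The readthrough gene TMED7-TICAM2 was at 7.11 and 2.41 while TMED7 itself was at 43.9 and 46.4. MTPN, which encodes myotrophin, was listed at 0 in 4 of the 6 libraries and at 4.66 and 4.53 in the 100 nM libraries of 24 h and 48 h. RFPL4A, at 1.17 and 4.55, has a near-identical neighbour, RFPL4AL1, at 0.73 and 2.23. Gene ID 2578, without a symbol in the RefSeq table and in a cluster of like genes on chromosome X, was at 1.70 and 0. Without the genes with a named partner and MTPN, 37 genes were called higher and 17 lower.

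Genes of DNA replication and nucleotide supply were lower at 200 nM in nearly the whole list. Of 39 tested, 37 were lower and 2 higher by any amount, against 50.6% and 49.1% of all tested genes, and the median log2 ratio was -0.36. TYMS was the 1 called, and 9 members were lower by at least 1.5-fold, against 0.18% and 2.15% of all tested genes. Among these, the replicative helicase genes MCM6, MCM5 and MCM3 were at 33.7 and 20.2 (-0.71), 30.9 and 19.2 (-0.66), and 91.6 and 60.2 (-0.60). The helicase partners GINS2, GINS3 and CDC45 had log2 ratios of -0.65, -0.68 and -0.59, the checkpoint adaptor CLSPN had -0.59, and RRM1, the large subunit of ribonucleotide reductase, was at 91.8 and 60.5 (-0.59). The sliding clamp gene PCNA was just short of 1.5-fold, at 105 and 70.3 (-0.58). The 2 members above 0 were RPA3, with 0.03, and TK1, the thymidine salvage kinase, at 92.02 and 110 (0.25).

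The cell division list moved less. Of 37 G2/M and mitosis genes, 33 were lower and 4 higher, the median was -0.29, and no member passed 1.5-fold. Among all tested genes, 50.6% were lower and 49.1% higher. CCNB1, the mitotic cyclin B1, was at 121 and 88.1 (-0.45), FOXM1, a transcription factor of mitotic genes, was at 68.6 and 48.3 (-0.50), and the proliferation marker MKI67 was at 96.9 and 78.0 (-0.31). Of 18 G1 genes, 14 were lower with a median of -0.20, and CCNE2, the G1/S cyclin E2, was at 20.3 and 10.2 (-0.93). CCND1, which encodes cyclin D1, was at 262 and 299 (0.19), and CCND2, for cyclin D2, was higher past 1.5-fold at a very low level, at 0.34 and 1.11 (0.66). Among 6 tested CDK inhibitor genes, CDKN1A, which encodes p21, was at 30.6 and 48.8 (0.66), against 13.2 in DMSO 24 h, and CDKN1B, which encodes p27, was at 23.9 and 30.1 (0.32). None of the 6 was called.

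Interferon-stimulated genes were mostly lower, with exceptions. Of 33 tested, 24 were lower and 9 higher, and the median was -0.31, while 50.6% of all tested genes were lower, 0.18% were called lower and 2.15% were lower by at least 1.5-fold. IFIT3, an antiviral RNA-binding protein gene, was the 1 called, at 55.1 and 25 (-1.11), against 84.9 in DMSO 24 h. A further 9 were lower by at least 1.5-fold, among them IFI44 at 15.4 and 7.53 (-0.94), IFIT2 at 14.8 and 7.68 (-0.87), IFI35 at 7.86 and 4.19 (-0.77) and OASL at 5.74 and 3.09 (-0.72). In contrast, IFI6, an interferon-induced mitochondrial protein gene, was at 11 and 22.4 (0.96), the 1 member higher by at least 1.5-fold. IFIT1, in the same gene family as IFIT3, was at 18.9 and 23.6 (0.30). Members of the same family therefore lay on both sides of 0.

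In the list of antigen presentation, checkpoint and NKG2D ligand genes, PSMB10 was the 1 called of 26 and the median was 0.01. Of all tested genes, 0.18% were called lower. At 200 nM, PSMB10 was at 0.98, so it passed the filter only through the 100 nM library, where it was higher. PSMB8, another immunoproteasome subunit, was at 26.9 and 15.8 (-0.73), and the checkpoint ligand PDCD1LG2 was at 1.48 and 0.50 (-0.73). MICA, a stress ligand of natural killer cells, was at 29.2 and 59.2, just short of a call.

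**Figure D3:**
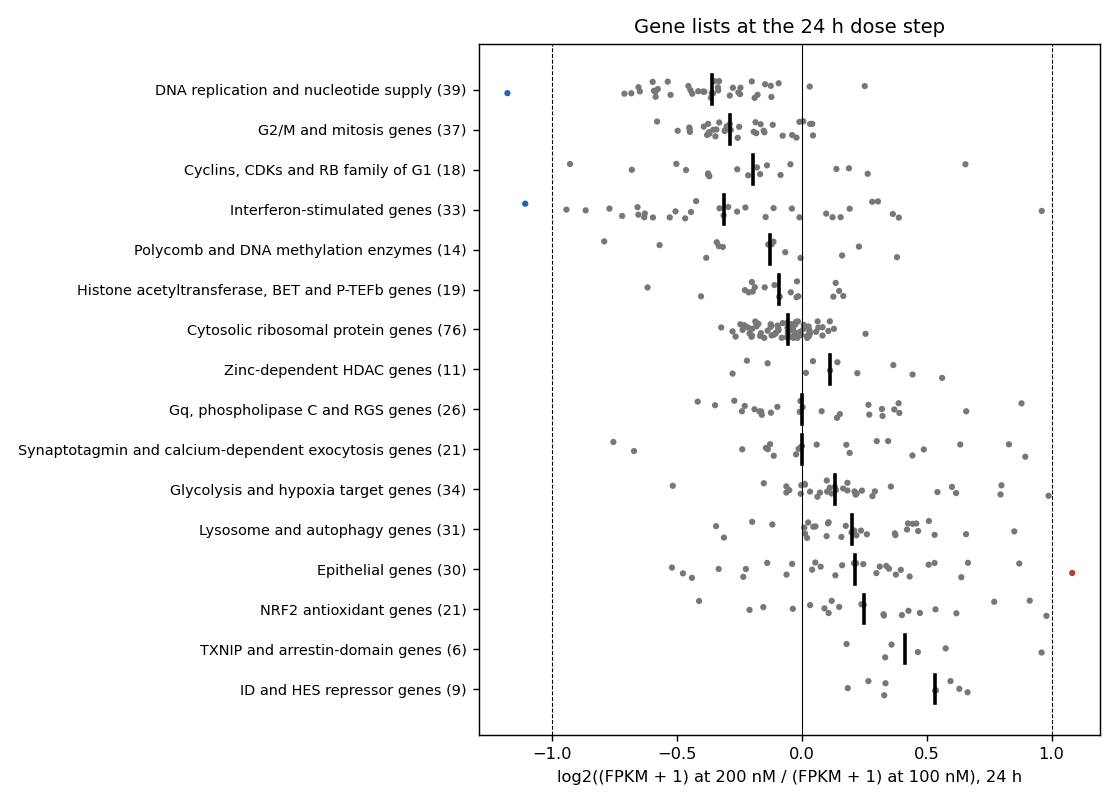
Log2 ratio of (FPKM + 1) at 200 nM over 100 nM, 24 h (horizontal), for the tested members of 16 gene lists, with the number of members in brackets. Each point is a gene, black bars are medians and dashed lines mark 2-fold; the replication, G2/M and interferon lists have medians from -0.36 to -0.29 and the ID and HES list one of 0.53.

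All 9 tested genes of the ID and HES list, which encode repressors of the helix-loop-helix class, were higher at 200 nM, with a median of 0.53, although none was called. The share higher among all tested genes was 49.1%. ID1, an inhibitor of DNA binding and a BMP target, was at 76.8 and 112 (0.53). HES1 and HES7, Notch pathway repressors, were at 1.90 and 3.49 (0.63) and at 4.17 and 7.19 (0.66), and HEY1, of the same pathway, was at 0.93 and 1.80 (0.54). Because HEY1 passed the filter only through the 200 nM library, it could not have counted as lower. In DMSO 24 h, ID1 was at 79.2, close to its level at 100 nM, and HES7 was at 1.05. TXNIP, an inhibitor of thioredoxin and of glucose uptake, followed the pattern of ID1, with 68.2 in the DMSO library, 67.2 in the 100 nM library and 132 in the 200 nM library of 24 h (0.96). All 6 tested genes of its list, which holds the related arrestin-domain genes, were higher, with a median of 0.41, and ARRDC3 was at 6.89 and 10.8 (0.58).

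Antioxidant, glycolysis and lysosome genes were above 0 in most members. Of 21 NRF2 antioxidant genes, 17 were higher with a median of 0.25, and 4 were higher by at least 1.5-fold. Among all tested genes, these shares were 49.1% and 3.09%. Among these were SRXN1, which encodes sulfiredoxin, at 46.1 and 91.9 (0.98), HMOX1, which encodes heme oxygenase, at 5.31 and 10.9 (0.91), and TXNRD1, which encodes thioredoxin reductase, at 252 and 431 (0.77). The ferritin genes FTL and FTH1 were at 4409 and 5531 (0.33) and at 1417 and 1905 (0.43). The NRF2 gene itself, NFE2L2, was at 59.4 and 63.3 (0.09).

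Of 34 glycolysis and hypoxia target genes, 27 were higher with a median of 0.13, against 49.1% higher among all tested genes. NDRG1, a hypoxia- and metal-responsive gene, was at 172 and 343 (0.99), and the glucose transporter genes SLC2A1 and SLC2A3 were at 73.0 and 127 (0.80) and at 12.9 and 20.3 (0.62). ALDOC, an aldolase, and ADM, which encodes adrenomedullin, had log2 ratios of 0.80 and 0.60, while the glycolytic enzyme genes LDHA and GAPDH had 0.01 and 0.10. EPAS1, which encodes HIF-2α, was at 34.5 and 60.8 (0.80), and HIF1A was at 179 and 158 (-0.18). Of 31 lysosome and autophagy genes, 27 were higher with a median of 0.20, against the same 49.1%. NEU1, a lysosomal sialidase, was at 15.8 and 29.2 (0.85), and SQSTM1, the autophagy receptor p62, was at 138 and 191 (0.47).

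Expression of zinc-dependent HDAC genes, which include the drug's targets, was close at both doses. Of 11 zinc-dependent HDAC genes, 8 were higher and 3 lower, the median was 0.11, and none passed 1.5-fold. All tested genes were 49.1% higher and 50.6% lower by any amount. HDAC1 was at 71.8 and 74.1 (0.04), HDAC2 at 27.9 and 30.2 (0.11) and HDAC3 at 58.7 and 80.2 (0.44). HDAC5, a class IIa member, had the largest value, at 6.29 and 9.76 (0.56), and is not among the HDACs that the study lists as inhibited by PCI-24781. Histone acetyltransferase, BET and P-TEFb genes had a median of -0.09 with 15 of 19 lower, and Polycomb and DNA methylation genes one of -0.13 with 11 of 14 lower, among them EZH2 at 42.7 and 33.7 (-0.33) and DNMT1 at 68.4 and 52.2 (-0.38). The 76 ribosomal protein genes had a median of -0.06 with 58 lower, a shift that is small for each gene. Of 56 lists examined, 45 held no called gene, and 43 had a median between the quartiles of all tested genes, -0.17 and 0.17.

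The study addressed calcium signalling, and 22 of 32 genes that its text names for expression measurements passed the filter. Of these, PCDH1, SCIN, MMP15 and SYP were called higher and 0 were called lower, so 4 of 22 are to be read against 0.343% of all genes, in a list chosen at least in part on these libraries. RGS2, a regulator that dampens Gq signalling, was at 8.23 and 7.62 (-0.10) and at 4.70 in DMSO 24 h. PLCB3, a phospholipase C of that pathway, was at 30.9 and 34.5 (0.15), and GNAQ, the Gq alpha subunit, was at 14.5 and 12.9 (-0.16). The whole list of 26 Gq, phospholipase C and RGS genes had 13 higher and 13 lower with a median of -0.00, and its members past 1.5-fold were PLCD1 at 7.32 and 14.3 (0.88) and PLCD3 at 52.7 and 83.7 (0.66). Between the doses at 24 h, RGS2 and PLCB3 thus differed by less than 1.5-fold in either direction. At 48 h, RGS2 was at 5.08 and 11.19, which is past the 2-fold limit for a call, with 6.75 in DMSO 48 h. PLCB3 was at 36.71 and 29.03 (-0.33) at 48 h, with 32.17 in DMSO 48 h. The difference between the times was not tested.

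Synaptotagmins, the calcium sensors of exocytosis, and their relatives were spread around 0, with 10 of 21 higher, 10 lower and 1 equal. SYT7 was at 0.39 and 1.47 (0.83), SYT11 at 0.92 and 2.57 (0.89), SYT12 at 0.49 and 1.09 (0.49) and SYTL2 at 5.07 and 5.93 (0.19). RIMS2, an organizer of vesicle release sites, was at 19.1 and 10.9 (-0.76), and UNC13D, a vesicle priming factor of immune cells, was at 21.1 and 12.9 (-0.67). Of 24 genes for calcium channels, stores and pumps, CACNA1G was called higher, 14 were higher by any amount, and the median was 0.09. Of all tested genes, 0.343% were called higher and 49.1% were higher by any amount. With an FPKM of 0.53 at 100 nM and 2.13 at 200 nM, CACNA1G passed the filter only through the library where it was higher. The plasma membrane calcium pump genes ATP2B1 and ATP2B4 were at 27.2 and 26.4 (-0.04) and at 21.6 and 25.3 (0.22).

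Among 11 tested matrix metalloproteinase and TIMP genes, MMP15 was called higher and no member was called lower, against 0.343% and 0.18% of all tested genes. MMP14, an activator of other matrix proteases, was at 44.2 and 23.4 (-0.89), and MMP1, an interstitial collagenase, was at 14.03 and 8.16 (-0.71), both past 1.5-fold. At 48 h, MMP1 went the other way, at 5.82 and 14.93 (1.22), with 14.07 in DMSO 48 h. MMP14 was at 68.95 and 50.11 (-0.45) at 48 h, with 63.65 in DMSO 48 h. The inhibitor genes TIMP2 and TIMP4 were at 233 and 348 (0.58) and at 1.61 and 2.94 (0.59). MMP2 and MMP3 did not reach the filter, with 0.05 in both libraries and with 0.72 and 0.60.

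Highly expressed genes past 1.5-fold are given here whether called or not. In DMSO 24 h, 2751 tested genes reached an FPKM of 30, and of these 30 (1.09%) were higher and 64 (2.33%) were lower by at least 1.5-fold, against 3.09% and 2.15% of all tested genes. The 30 include 1 gene called higher and the 64 include 7 called lower, and the genes named next were not called. ANKRD1, a YAP target, was at 482 and 816 (0.76), DKK1, a secreted Wnt inhibitor, was at 114 and 214 (0.90), ERRFI1, a feedback inhibitor of EGFR, was at 94.8 and 187 (0.97), and SLC7A5, an amino acid transporter, was at 107 and 183 (0.77). On the lower side, EMP3, a membrane glycoprotein, was at 161 and 85.2 (-0.91), NRP1, a co-receptor for semaphorins and VEGF, was at 141 and 82.7 (-0.76), the nuclear lamina gene LMNB1 was at 55.6 and 32.0 (-0.78), and the splicing factor gene SRSF2 was at 131 and 76.2 (-0.77). PLAUR, the urokinase receptor, was at 53.9 and 31.7 (-0.75).

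The same dose step was measured once more at 48 h, in libraries that share none with the 24 h step. For the 40 genes called higher at 24 h, the median FPKM was 0.89 in the library labelled 100 nM 48 h, below the 2.085 of DMSO 48 h, and 4.76 in 200 nM 48 h. The order of the DMSO and 100 nM libraries at 48 h was therefore the opposite of that at 24 h for these genes, so DMSO 48 h values are given beside the genes named and medians against DMSO 48 h beside those of the lists. Whether this reflects the cells, the libraries or their labels was not tested.

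At 48 h, 200 genes were called higher (1.71% of 11694) and 34 lower (0.291%), and at 1.5-fold 655 (5.6%) and 277 (2.37%). Of the 40 genes called higher at 24 h, 37 were higher, 1 lower and 2 equal at 48 h, with a median log2 ratio of 0.94, whereas 52.3% of all genes tested at 24 h were higher. Against DMSO 48 h, the 200 nM 48 h library was also higher in 37 of the 40, with a median of 0.66, and in 50.9% of all tested genes. Of the 21 genes called lower, 12 were lower, 8 higher and 1 equal at 48 h, with a median of -0.39, whereas 47.5% of all were lower. Against DMSO 48 h, 17 of the 21 were lower at 200 nM, with a median of -0.33, and 48.6% of all were. Across 11486 genes tested at both times, the log2 ratios of the steps had a Pearson r of 0.34, which describes genes of 4 libraries and not replicates.

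**Figure D4:**
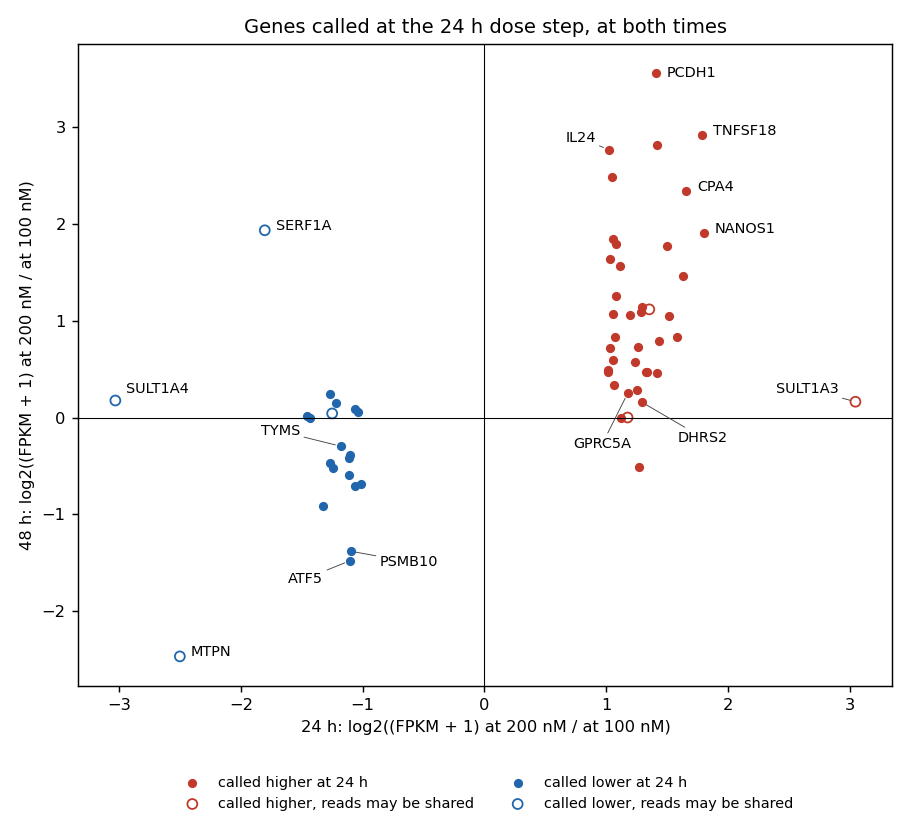
Log2 ratio of (FPKM + 1) at 200 nM over 100 nM at 24 h (horizontal) and at 48 h (vertical) for the 61 genes called at 24 h, 1 point per gene. Red and blue points are genes called higher and lower, and open points are genes with a named partner that may share reads, and MTPN. Gene ID 2578 and Gene ID 100861437, each listed at 0 on 1 side of the 24 h step, are drawn filled. At 48 h, 37 of the 40 red points lie above 0 and 12 of the 21 blue points lie below.

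At both times, 20 genes were called higher, 50.0% of the 24 h list and 10.0% of the 48 h list. PCDH1 was at 0.15 and 12.5 at 100 nM and 200 nM of 48 h, a log2 ratio of 3.56, with 3.08 in DMSO 48 h. TNFSF18 was at 0.38 and 9.43 (2.92), with 1.01 in DMSO 48 h, and CPA4 was at 7 and 39.6 (2.34), with 14.2 in DMSO 48 h. SCG2 was at 0.38 and 8.70 (2.81), with 2.14 in DMSO 48 h, and NANOS1 was at 1.36 and 7.86 (1.91), with 2.43. For these 5 genes, 200 nM was the highest library of 48 h and 100 nM the lowest. GPRC5A had a log2 ratio of 0.25 at 48 h, with 51.0 and 60.8 and with 46.6 in DMSO 48 h, and DHRS2 had 0.16, with 0.20 and 0.34 and with 0.33 in DMSO 48 h.

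Called lower at both times were ATF5, PSMB10 and MTPN, 14.3% of the 24 h list and 8.82% of the 48 h list. MTPN is uncertain, as described with the genes that share reads, and was listed at 0 in the DMSO and 200 nM libraries of both times. ATF5 was at 15.4 and 4.87 at 100 nM and 200 nM of 48 h (-1.48), with 11 in DMSO 48 h. PSMB10 was at 8.35 and 2.59 (-1.38), with 7.18 in DMSO 48 h. TYMS was at 97.4 and 79.1 (-0.30), with 102 in DMSO 48 h, SERPINH1 at 45.0 and 32.3 (-0.47), with 34.7, and IFIT3 at 84.6 and 55.5 (-0.60), with 82.95, so that their log2 ratios at 48 h were on the same side of 0 and smaller. LPXN, at 39.7 and 44.2, had a log2 ratio of 0.15, and DMSO 48 h was above both at 46.3.

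Some lists had unlike medians at the 2 times. DNA replication genes had a median of -0.36 at 24 h and 0.01 at 48 h, with 21 of 39 higher at 48 h, and G2/M genes had -0.29 and -0.07. Against DMSO 48 h, the 200 nM 48 h library had medians of -0.07 and -0.14 for these lists. TXNIP and its relatives had 0.41 and -0.10, and lysosome genes had 0.20 and -0.05. Their medians against DMSO 48 h were 0.05 and 0.09. Interferon-stimulated genes had -0.31 and -0.29, with 23 of 33 lower at 48 h, ID and HES genes had 0.53 and 0.39, and epithelial genes had 0.21 and 0.22. With DMSO 48 h in place of 100 nM 48 h, the medians of these 3 lists were -0.17, 0.14 and 0.12. None of these differences between times was tested.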

How the data were processed

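RNA from MDA-MB-231 cells was sequenced by an outside provider, with mRNA enriched or rRNA depleted, 1 library per condition. The submitters' processing notes name Bowtie2, RSEM and hg19, with no versions given in the sources used here. The deposited values are FPKM per gene, made by the authors and rounded to 2 decimals. RSEM divides reads shared by similar genes, so the values of near-identical copies are uncertain. Symbols were matched by NCBI Gene ID to RefSeq tables (GRCh38.p14) for 16585 of 16623 genes, and 38 had none. Gene coordinates are those of the files. Promoter sequences are RefSeq's.

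From the FPKM, log2 ratios with an added 1 were calculated for genes with at least 1 FPKM in either library, and called at 2-fold. No count test or p-value was possible. The depth was estimated from how low FPKM values are spaced, given transcript lengths. It is approximate and covers counting error only. The calls were also tried on simulated reads with counting error only. There, changed genes had a fold above the 2-fold limit and were not picked at low levels. That trial therefore cannot show how calls behave near the limit, in weakly expressed genes or between cultures.

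Members, the 60 gene lists and the rules were chosen with earlier results of these data known. Named were the 15 largest called ratios per direction, the 5 called genes per direction highest in DMSO 24 h, up to 6 called members per list or else its 2 most abundant, and genes the study's text names. Other called genes, list members past or near 1.5-fold or of a named family, promoters and genes with an FPKM of at least 30 past 1.5-fold were chosen after their values were seen. Alternatives were pseudocounts of 0.1 and 0.01, no filter, the filter in both libraries, TPM, median-of-ratios factors and folds of 1.5 and 3. Leaving out genes that share reads, and DMSO 48 h as reference, were added after seeing the data. Calculations were run in Python 3.11.15 with pandas 2.3.3 and numpy 2.4.6, and plots were drawn with matplotlib 3.10.9. Some genes covered by these rules are left out of the text.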

Additional observations from a re-analysis of the deposited data

Results flagged for a closer look

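SERF1A differed in direction between the times: it was at 2.49 at 100 nM and listed at 0 at 200 nM at 24 h, and listed at 0 at 100 nM and at 2.82 at 200 nM at 48 h. On the log2(FPKM + 1) scale the difference was -1.80 at 24 h and 1.93 at 48 h, values that depend on the added 1 and are no bound. The gene has a near-identical copy, SERF1B, and the difference between the times was not tested.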

How the results depend on the processing

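The number of calls depended on the added value, the unit and the fold, and in every setting more genes were higher than lower. A pseudocount of 0.1 gave 170 genes higher and 60 lower for the 24 h step, and 426 higher and 89 lower for the 48 h step. A value of 0.01 gave 193 and 69 for the former and 464 and 101 for the latter. Rescaling to TPM gave 112 higher and 36 lower at 24 h, then 333 higher and 61 lower at 48 h. The 1.5-fold limit gave 360 and 250 at 24 h, and 655 and 277 in the later step. The 3-fold limit left 5 and 3 genes at 24 h, and 56 and 6 in the later step. Asking for the minimum FPKM in each library left 119 genes higher at 48 h and, at 24 h, 27 higher and 15 lower. Median-of-ratios factors gave 46 and 20 at 24 h. A smaller added value and TPM weigh low genes more by construction, and the stricter filter removes genes. Of the medians of the 60 lists, only those at least 0.1 above or below 0 were checked for a change of sign. Smaller medians can change sign with small shifts and were not counted. Among the medians checked, 4 values changed sign. The cadherin list went to -0.024 with the stricter filter and -0.0069 without a filter. Potassium channel genes went to 0.029 without a filter, and leukocyte markers to -0.26 with the stricter filter. Of the genes called at 24 h, CBR3 was the 1 that fell short of the 2-fold limit with another pseudocount, filter or scaling that gave it a value, at -0.99 with median-of-ratios factors, and none changed sign. The medians against DMSO 48 h were added after the data were seen.

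No paired analysis was possible because the labels give no replicate numbers and each condition is 1 library, and no library was left out for the latter reason. Depth limits genes with few reads, such as DHRS2.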
